A study of Arabidopsis thaliana with 20 samples.

Results

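FATB and FBN6 are nuclear genes for proteins of plastid lipid metabolism, measured here by an expression array in Arabidopsis thaliana that carries the atpc1-1 mutation and in wild type. Their rows were taken as those whose probe annotation lists exactly 1 gene, that gene being FATB (AT1G08510) or FBN6 (AT5G19940). This gave 1 row for each gene, 2 of the 692 rows that list 1 gene and of the 3439 rows in all. The pair was selected on its log2 differences between the genotypes in an earlier analysis of these data, which ran in opposite directions. The differences of both genes between the genotypes are therefore a description and carry no test.

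The array held 10 columns labelled atpc1-1 and 10 columns labelled WT, each a sample of total RNA. Both genotypes were of ecotype Columbia-0 and were grown on MS medium, a standard plant culture medium. According to the labels the atpc1-1 mutant is without the γ subunit of the ATP synthase, an enzyme that in the chloroplast turns the light-driven proton gradient into ATP. The labels name no tissue or plant age and do not say whether samples came from separate plants, and only 1 mutant allele was measured.

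FATB is an acyl-ACP thioesterase. Fatty acids are built in the plastid on acyl carrier protein, and FATB cuts off mainly saturated chains, chiefly palmitate, which then leave the plastid for membrane lipids, waxes and seed oil. The related FATA enzymes prefer the unsaturated oleoyl chain. FBN6 belongs to the fibrillins, also called plastoglobulins, a family of plastid proteins found in lipid droplets and at thylakoid membranes. The gene tables used here name the FBN6 locus only as AT5G19940. No probe, promoter or protein sequence of these genes was at hand.

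Values were deposited as linear intensities. Most rows were dimmer in the mutant, with column medians of 0.130 to 0.224 in atpc1-1 and 0.339 to 0.493 in WT. Between 5.70% and 20.8% of rows stood at 0 in the atpc1-1 columns, against 3.63% to 4.36% in WT. Among columns of 1 genotype, each of the 10 was closest in its deviations from the genotype mean to its adjoining number (correlations of -0.07 to 0.20 in atpc1-1 and 0.16 to 0.71 in WT), so columns 1 and 2, 3 and 4 and so on were averaged and counted as 1 replicate, which gives 5 replicates for each genotype. The p-values thus rest on the spread among samples that may be technical repeats. The row listing the mutated gene ATPC1 also lists ATPC2 and spanned 0.113 to 1.96 in atpc1-1 and 0.315 to 0.760 in WT, and it does not check the labels. Of the green tissue markers, 6 of 15 had a row of their own, and all 6 were above 0 in every column. In log2 difference after the normalisation described with FATB, PRK stood at 1.68 (limma adjusted p = 0.00651) and PSBY at 1.04 (limma adjusted p = 0.00781), both called. PSBW at -0.26, LHB1B2 at -0.18, PSAN at -0.04 and SBPASE at -1.04 were not called, SBPASE with a limma adjusted p of 0.105. In intensity, SBPASE had 9 of 10 atpc1-1 columns below the lowest WT column. The stricter condition of all 10 below held for 21.0% of all rows. PSBW ran from 40.7 to 59.3 in atpc1-1 and from 29.9 to 45.2 in WT. Columns of atpc1-1 above the highest WT column numbered 8 for PSBW, 8 for PRK and 10 for PSBY. They numbered 0 for LHB1B2, PSAN and SBPASE. All 10 above, a stricter condition than 8, held for 1.69% of all rows. The part of these markers' differences in the results that follow was not tested. No root or seed marker had a row of its own.

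FATB was detected in every column of both genotypes. Its intensity in the 10 atpc1-1 columns ran from 0.200 to 0.550 with a median of 0.345, against 0.135 to 0.455 with a median of 0.285 in the 10 WT columns. The groups overlapped on this scale, with 3 atpc1-1 columns above the highest WT column and 8 above the WT median. Over the whole array, the stricter condition of all 10 atpc1-1 columns above all 10 WT columns in intensity held for 1.69% of rows. In rank the groups were apart. FATB exceeded 55.0% to 79.4% of all rows in the atpc1-1 columns and 14.7% to 52.8% of all rows in the WT columns. All 10 atpc1-1 columns thus ranked FATB above all 10 WT columns, as they did for 4.30% of all rows on the array. FATB therefore stood near WT intensity in columns where the typical row was dimmer than in WT. In total RNA, fewer cells of a type and less RNA per cell cannot be told apart.

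After quantile normalisation, which gives all columns about the same distribution of values above 0, the log2 level of FATB in atpc1-1 replicates 1 to 5 was -1.82, -1.27, -0.60, -0.66 and -0.86. In WT replicates 1 to 5 it was -3.26, -2.63, -2.68, -2.19 and -1.97. Every atpc1-1 replicate lay above every WT replicate, with the lowest atpc1-1 value, in replicate 1, close to the highest WT value, in replicate 5. The choice of FATB on this contrast favours such a separation, and its share over all rows was not counted. The means were -1.04 ± 0.51 in atpc1-1 and -2.54 ± 0.50 in WT (SD, n = 5 each), a log2 difference of 1.501 (SE 0.33). Of all tested rows, 93.4% had a lower difference. Across all tested rows 10.2% were called higher in atpc1-1 by limma at an adjusted p under 0.05, a share from which nothing is read for FATB, since that contrast chose it. Columns of a pair gave similar FATB intensities, the higher being at most 1.26 times the lower in atpc1-1 and at most 1.70 times in WT.

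**Figure D1:**
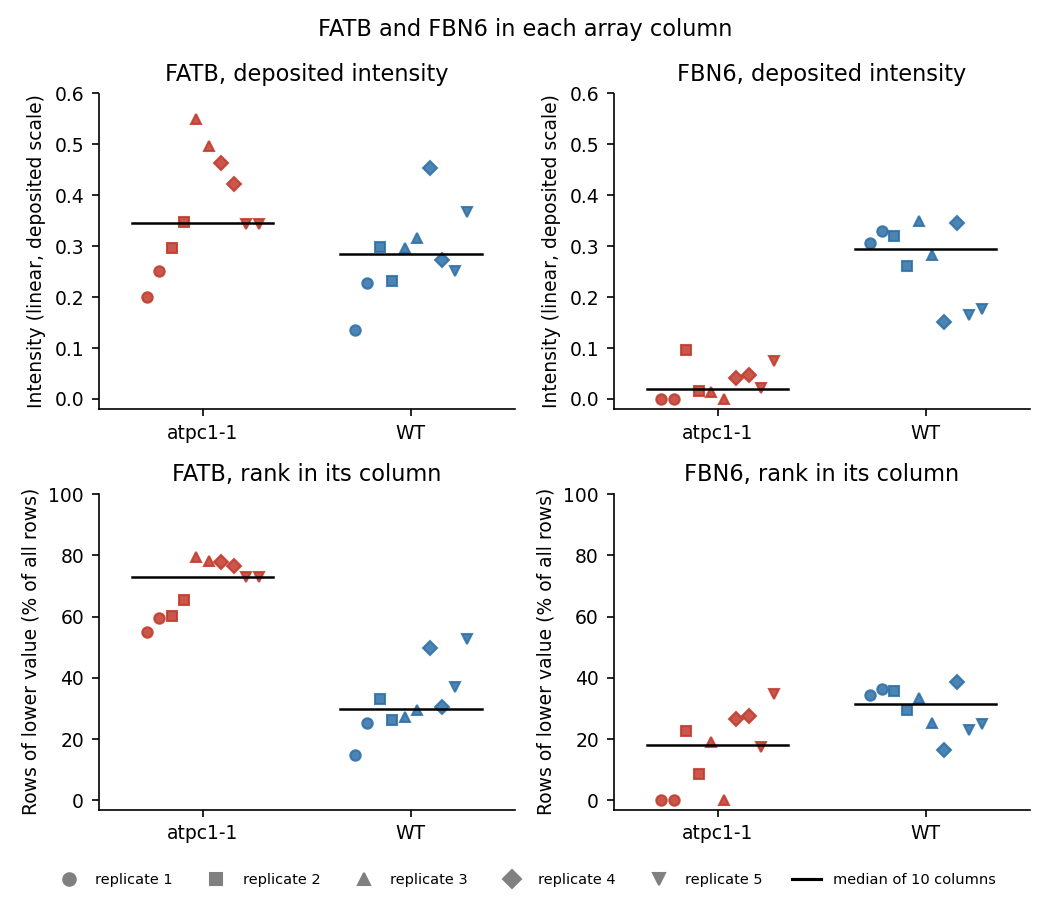
Deposited intensity (top, linear) and share of rows with a lower value in the same column (bottom, percent) of FATB and FBN6 in each atpc1-1 and WT column, with 1 point per column, marker shape for the replicate and a line at the median of 10 columns. FATB overlaps between genotypes in intensity (0.200 to 0.550 in atpc1-1, 0.135 to 0.455 in WT) and not in rank, while FBN6 overlaps in rank and not in intensity (at most 0.0968 in atpc1-1, at least 0.151 in WT).

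FBN6 was dim or at 0 in the mutant. Its intensity was listed at 0 in atpc1-1 columns 1, 2 and 6, and stood at 0.0968, 0.0165, 0.0131, 0.0421, 0.0470, 0.0209 and 0.0744 in atpc1-1 columns 3, 4, 5, 7, 8, 9 and 10. The 10 WT columns ran from 0.151 to 0.350 with a median of 0.295, and none was at 0. All 10 atpc1-1 columns lay below all 10 WT columns, as they did for 21.0% of all rows on the array. Columns 1, 2 and 6 are also the atpc1-1 columns with the largest shares of rows at 0, at 20.8%, 20.2% and 17.9%, and the part of this in the zeros of FBN6 was not tested. A row above 0 in every WT column and at 0 in at least 3 atpc1-1 columns was common, at 15.4% of all rows.

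In rank FBN6 overlapped between the genotypes. It exceeded 0% to 34.9% of all rows in the atpc1-1 columns and 16.3% to 38.7% of all rows in the WT columns. Only 4 of 10 atpc1-1 columns ranked FBN6 below the lowest WT column, and 9 of 10 below the WT median. A full separation downward in rank was seen in 2.62% of all rows. The low end of WT was column 7 with an intensity of 0.151, whose partner, column 8, had 0.345. In the same pair FATB stood at 0.455 in column 7 and 0.274 in column 8, so the genes moved in opposite directions between these columns. They also did so between WT columns 5 and 6. Between WT columns 1 and 2, 3 and 4, and 9 and 10 both genes moved in the same direction.

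The quantile-normalised log2 level of FBN6 was -4.42, -5.42, -3.36 and -3.44 in atpc1-1 replicates 2 to 5, and replicate 1 had no value because both of its columns were at 0. In WT replicates 1 to 5 it was -2.35, -2.49, -2.63, -2.88 and -2.94. The atpc1-1 replicates with a value all lay below the WT range and spread more widely, with means of -4.16 ± 0.97 (SD, n = 4) in atpc1-1 and -2.66 ± 0.25 (SD, n = 5) in WT. The choice of FBN6 favours this separation too, and its share over all rows was not counted. The log2 difference was -1.498 (SE 0.42) in a fit that leaves atpc1-1 replicate 1 out for this gene and the zero column of replicate 3. Of all tested rows, 91.0% had a higher difference, and 14.3% were called lower in atpc1-1. Where both columns of a pair were above 0, they differed by up to 5.88 times in atpc1-1, in replicate 2. In WT they differed by up to 2.28 times, in replicate 4. In atpc1-1 replicate 3, column 5 stood at 0.0131 and column 6 at 0, so no ratio can be given.

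The ratio of FATB to FBN6 in the same column is untouched by any constant scaling of that column. The rows are different probes, so the level of the ratio has no meaning of its own and only its difference between genotypes is read. The ratio was 3.05 to 42.2 in the 7 atpc1-1 columns where both genes were above 0, with a median of 11.0, and 0.438 to 3.003 in the 10 WT columns, with a median of 0.912. The lowest atpc1-1 column, column 3, and the highest WT column, column 7, were nearly level. On the log2 scale the replicate means were 3.71 ± 1.13 (SD, n = 4) in atpc1-1 and 0.09 ± 0.67 (SD, n = 5) in WT, a difference of 3.62. The choice of the pair fixes the direction of this difference.

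**Figure D2:**
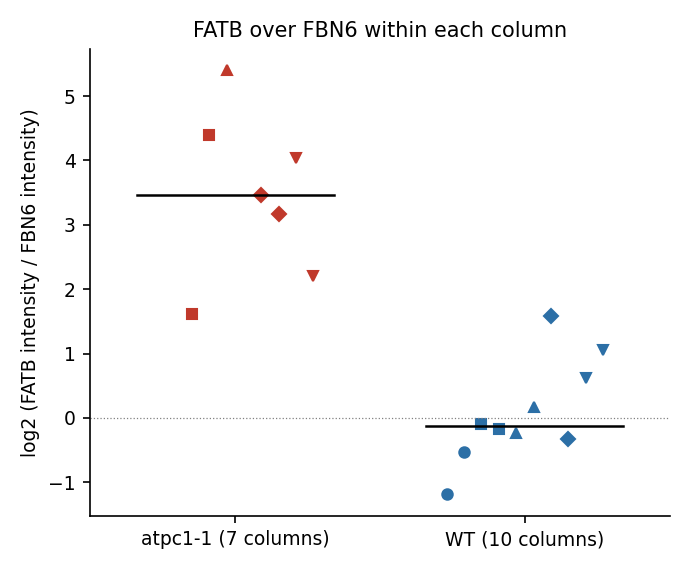
Log2 ratio of FATB to FBN6 intensity within each column, for the 7 atpc1-1 columns in which both were above 0 and the 10 WT columns, with marker shape for the replicate (circle 1, square 2, triangle up 3, diamond 4, triangle down 5) and a line at the median. The atpc1-1 columns lie between 1.61 and 5.40 and the WT columns between -1.19 and 1.59.

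A further row lists FATB, together with AT4G13050 and FaTA (AT3G25110), and it was lower in atpc1-1. Its intensity ran from 0 to 0.204 in the 10 atpc1-1 columns, with a median of 0.116, and from 0.324 to 1.11 in the 10 WT columns, with a median of 0.855. All 10 atpc1-1 columns were below all WT columns, against the 21.0% of all rows for which this held. In rank it exceeded 0% to 58.1% of rows in atpc1-1 and 48.1% to 81.5% of rows in WT. In rank 8 of 10 atpc1-1 columns lay below the lowest WT column. The stricter condition of all 10 below held for 2.62% of all rows. This row fell by 1.85 on the log2 scale (SE 0.52, limma adjusted p = 0.0270), with all 5 atpc1-1 replicates below the WT mean. The lowest was atpc1-1 replicate 4 at -4.59, whose columns differed by 29.9 times. Without it the difference was -1.39 (limma adjusted p = 0.0344). The highest, atpc1-1 replicate 5 at -1.80, was level with WT replicate 5 at -1.79. The call was lost without WT replicate 2, 3 or 4, at limma adjusted p-values of 0.0668, 0.0609 and 0.0638. It was also lost with cyclic loess (p = 0.0860), with zeros replaced by the table's lowest positive value (p = 0.0878), with the pair as a random block (p = 0.0711) and with the replicate block (p = 0.0566), all limma adjusted.

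The row that lists AT4G13050 and FaTA without FATB had a log2 difference of -0.16 and did not pass the test (SE 0.28; adjusted p = 0.706 in limma). Its intensity was 0.159 to 0.598 in atpc1-1 and 0.535 to 1.18 in WT. Here 8 of 10 atpc1-1 columns lay below the lowest WT column. The stricter condition of all 10 below held for 21.0% of all rows. After normalisation the row of FATB alone thus stood higher in atpc1-1, a difference that carries no test. The thioesterase row listing FATB with the FATA loci was called lower, and that of the FATA loci without FATB was uncalled. The annotation leaves unsaid which of its listed genes the row with FATB and the FATA loci reports. It was looked at because its annotation names FATB, and it is no member by the rule of a single listed gene.

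**Figure D3:**
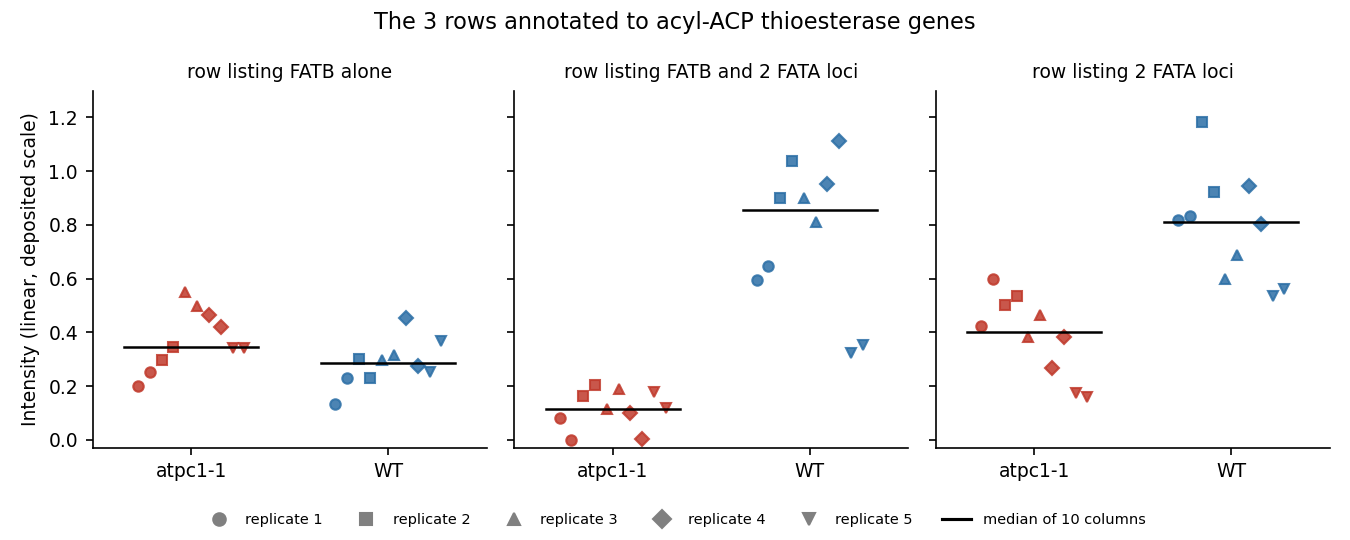
Deposited intensity (linear) of the 3 rows annotated to acyl-ACP thioesterase genes in each atpc1-1 and WT column, with marker shape for the replicate and a line at the median of 10 columns. The medians are 0.345 in atpc1-1 and 0.285 in WT for FATB alone, 0.116 and 0.855 for FATB with the FATA loci, and 0.403 and 0.811 for the FATA loci, and levels are to be compared within a panel only.

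Other plastid lipid genes with a row of their own did not pass the test. The 9 lists for plastid and other lipid metabolism held 173 genes, of which 11 had a row of their own, FATB and FBN6 included. Of the 9 remaining rows, 8 could be tested and none of these 8 was called (0 higher and 0 lower), against 24.5% called over all tested rows and 23.2% of those listing 1 gene. At an unadjusted p under 0.05 in limma 1 of the 8 passed. Their median log2 difference was -0.21, against -0.19 over all tested rows. The lists of fatty acid desaturation by FAD genes, of oxylipin and jasmonate synthesis, of wax and cutin, of lipid synthesis outside the plastid and of peroxisomal breakdown had no row listing a single gene of theirs. The tables name the loci given next by number only, and their place on a list rests on general knowledge of these families.

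Besides FBN6, 4 fibrillins had a row listing 1 gene. The row of AT2G35490 stood at 0.83 (SE 0.38), that of AT1G51110 at 0.69 (SE 0.56), that of AT2G46910 at 0.33 (SE 0.28) and that of AT5G09820 at -0.92 (SE 0.42). Their limma adjusted p-values were 0.127, 0.393, 0.407 and 0.127, so neither the positive nor the negative values passed. Without scaling, AT2G35490, AT1G51110 and AT2G46910 stood below 0, at -0.43, -0.91 and -0.74, and with mean scaling at -0.29, -0.77 and -0.59. The median over all rows in these settings was -1.22 and -1.08. AT2G46910 was then called lower without scaling (limma adjusted p = 0.0270), where 61.3% of all rows were called. AT5G09820 was also called lower without scaling, at -2.26 (limma adjusted p = 0.00207). With mean scaling it was called lower at -2.11 (limma adjusted p = 0.00332), where 55.1% of all rows were called. With all 10 columns as replicates it was called lower at -0.94 (limma adjusted p = 0.0433), where 43.5% were. Its intensities were 0 to 0.204 in atpc1-1, where 8 of 10 columns were above 0, and 0.264 to 0.608 in WT. All 10 atpc1-1 columns thus lay below all 10 WT columns, as in FBN6 and in 21.0% of all rows. AT2G35490, by contrast, overlapped in intensity, at 0.104 to 0.303 in atpc1-1 and 0.129 to 0.420 in WT. In some settings AT2G35490 was called higher. With all 10 columns as replicates it stood at 0.83 (limma adjusted p = 0.0235), where 43.5% of all rows were called. With the pseudocount of 0.1 it stood at 0.76 (limma adjusted p = 0.0231), where 33.2% were. It was also called higher with zeros ranked (limma adjusted p = 0.0427) and without WT replicate 5 (limma adjusted p = 0.0455). AT1G51110 ran from 0 to 0.146 in atpc1-1, where 6 of 10 columns were above 0, with a median of 0.0202, and from 0.0487 to 0.199 in WT, with a median of 0.116. AT2G46910 ran from 0.214 to 0.489 in atpc1-1 and from 0.375 to 0.657 in WT. In each of these last 2 rows, 7 of 10 atpc1-1 columns lay below the lowest WT column. The stricter condition of all 10 below held for 21.0% of all rows. Their intensity was thus mostly lower in atpc1-1, as for most rows, while the normalised difference was positive and uncalled. A further 5 rows list several fibrillins and no other gene, and all 5 were uncalled. They ran from -0.88 for AT3G26070 with AT3G26080 (limma adjusted p = 0.0862) to 0.59 for AT2G46910 with FIB (AT4G04020) and AT4G22240. The lowest had all 10 atpc1-1 columns below all 10 WT columns in intensity (0.237 to 0.675 against 0.755 to 1.77), as in 21.0% of all rows. In some other settings it was called lower, among them without scaling at -1.54 (limma adjusted p = 0.00305), where 61.3% of all rows were called. The highest was called higher with the pseudocount, at 0.74 (limma adjusted p = 0.0307). Others of the 5 were called lower in some settings. A difference between FBN6 and the other fibrillins was not tested.

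Of the fatty acid synthesis genes besides FATB, AT3G56130 was at -1.07 (SE 0.94) and AT1G24360 at -0.63 (SE 1.07), with limma adjusted p-values of 0.430 and 0.696. Both varied widely among atpc1-1 replicates (SD 2.42 and 2.71 on the log2 scale), and in AT1G24360 replicate 1 lay far below the others. With zeros left out, the WT mean was exceeded by 3 of 5 atpc1-1 replicates in AT3G56130 and by 4 of 5 in AT1G24360. AT1G24360 stood at 0.42 with zeros ranked. AT3G56130 was called lower there, at -0.88 (limma adjusted p = 0.0439), where 28.3% of all rows were called. It was also called lower with zeros replaced by the lowest positive value, at -2.95 (limma adjusted p = 0.0345). Without scaling it was called lower as well, at -2.43 (limma adjusted p = 0.0376). AT3G56130 was above 0 in 6 of 10 atpc1-1 columns and AT1G24360 in 9. The median intensity of AT3G56130 was 0.00992 in atpc1-1 and 0.217 in WT. AT5G16230 was above 0 in 3 atpc1-1 and 6 WT columns and had too few values for a test. AT3G58830, on the list of plastid glycerolipids, was at -1.15 (SE 0.40, limma adjusted p = 0.0545), with 0.0372 to 0.331 in atpc1-1 and 0.296 to 1.51 in WT. It passed without atpc1-1 replicate 1 at -1.30 (limma adjusted p = 0.0471) and in 5 other settings, among them the unscaled values at -2.20 (limma adjusted p = 0.00212). AT1G78620, on the list of plastoglobule and prenyl lipids, was at 0.22 (SE 0.48, limma adjusted p = 0.757), and at -0.35 without scaling.

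Rows listing several genes, at least 1 of them on a lipid list, numbered 19, and 18 were tested. Of these 2 rose, 1 fell and 15 did not pass, against 10.2% of all tested rows called higher and 14.3% called lower, with a median log2 difference of 0.15 against -0.19 over all tested rows. The fall is that of the row with FATB and the FATA loci. The row of AT2G38550 with AT3G57280 rose (limma adjusted p = 0.00155). Its intensity ran from 0 to 0.242 in atpc1-1, where 8 of 10 columns were above 0, and from 0 to 0.0422 in WT, where 5 of 10 were. Its fit uses the columns above 0 alone, so no size is given for this difference. A row of AAE15 (AT4G14070) with AAE16 (AT3G23790), acyl-activating enzymes, was called higher, at 2.39 over the columns above 0 (SE 0.39; adjusted p = 0.00512 in limma). Signal above 0 was present in 5 of 10 atpc1-1 columns and 10 of 10 WT columns, and the median intensity of this row was 0.0164 in atpc1-1 and 0.0464 in WT. That call therefore rests on the columns above 0, while the median intensity was lower in atpc1-1. The row was not called with cyclic loess, at 0.80 (limma adjusted p = 0.273), or without scaling, at 0.84 (limma adjusted p = 0.0659). It was also not called with zeros replaced by the lowest positive value, at 3.36 (limma adjusted p = 0.210). With a pseudocount of 0.1 it stood uncalled at 0.47 (limma adjusted p = 0.107). A second row listing the same AAE15 and AAE16 stood at 0.13 (limma adjusted p = 0.793). Without atpc1-1 replicate 1 the called rows numbered 5 instead of 3, without WT replicate 4 only 1, and 2 without WT replicate 1, 2, 3 or 5.

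**Figure D4:**
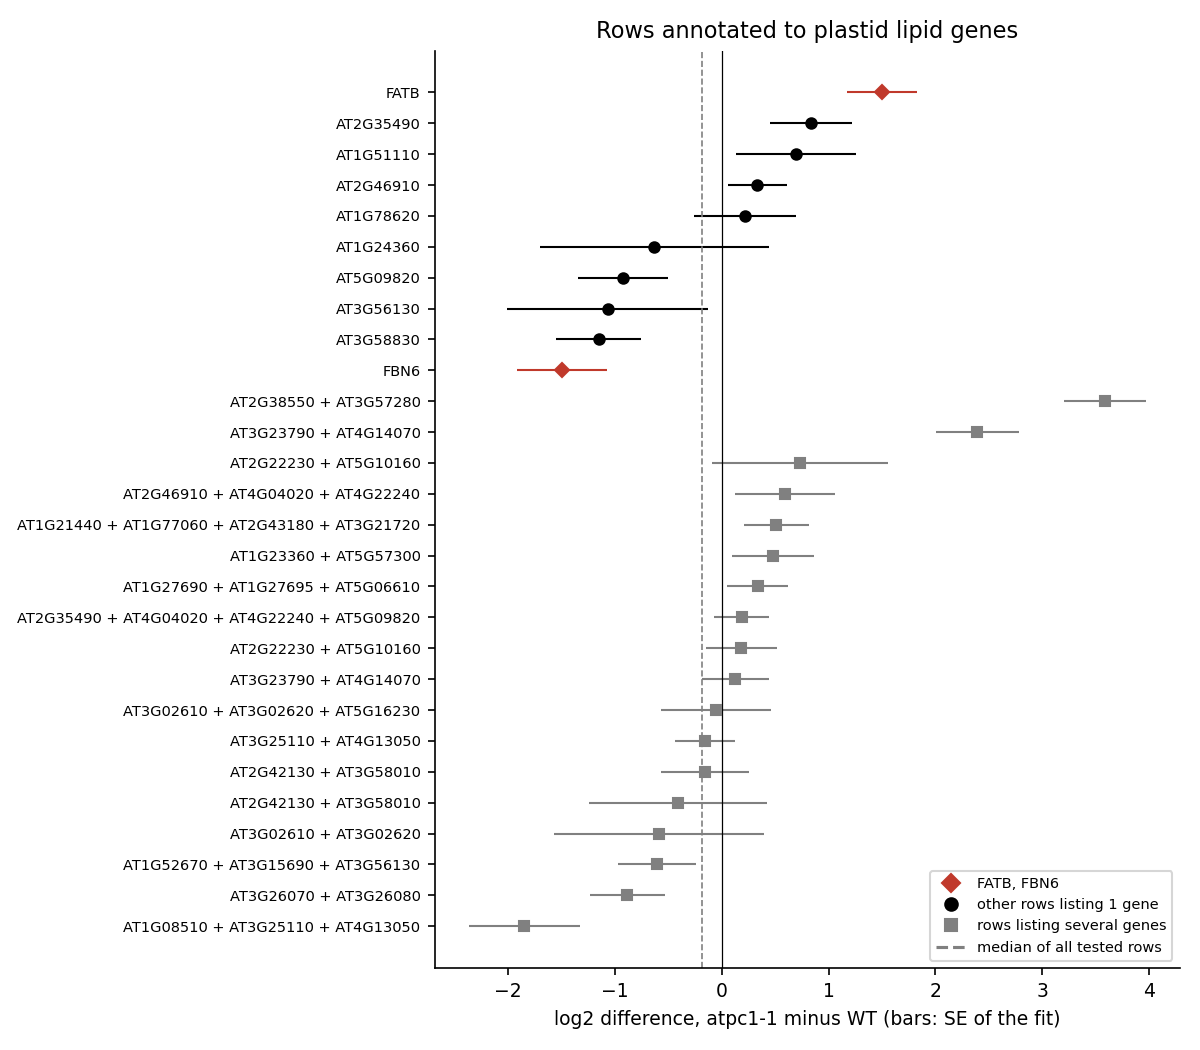
Log2 difference (atpc1-1 minus WT, quantile normalised; bars are the SE of the limma fit) of FATB, FBN6, the other 8 tested rows listing 1 lipid gene, and the 18 tested rows listing several genes. FATB lies at 1.501 and FBN6 at -1.498, values on which both were selected, and the row of AT1G08510 (FATB) with the FATA loci AT3G25110 and AT4G13050 has the lowest difference at -1.85, while the highest point, AT2G38550 with AT3G57280, rests on columns above 0 alone.

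The rows most like FATB over the 10 replicates, among 626 rows listing 1 gene, were AT4G31470 at a Pearson correlation of 0.94, PRK, the phosphoribulokinase of the Calvin cycle, at 0.93, and AT2G40980 at 0.93. Correlations of the deviations from each genotype's mean were 0.76, 0.70 and 0.78. Their log2 differences were 0.96, 1.68 and 0.97. The rows most like FBN6 were AT1G22040 at 0.95 over 8 shared replicates, AT5G19750, with atpc1-1 replicate 3 far below the others, at 0.92 and AT4G12740 at 0.91, each over 9. Correlations of their deviations were 0.60, 0.83 and 0.65, and their log2 differences -1.31, -0.74 and -1.14. All these rows share the replicates and the difference between genotypes, which enters each correlation, and they were picked as the highest of 626. The deviations enter the same correlations, so the picking also favours high correlations of deviations, from which nothing is read.

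The size of both differences depended on how columns were set to a common scale, and their order did not. Without any scaling FATB stood at 0.38 and FBN6 at -3.06, against a median of -1.22 over all rows. With mean scaling they stood at 0.53 and -2.91 (median of all rows -1.08), and with median centring at 1.55 and -1.82 (median -0.05). FATB stayed above 0 and above the median of all rows in every setting tried. FBN6 stayed below both in every setting that gave it a value. The choice of the pair on this contrast favours both directions. Whether FATB RNA was more abundant in absolute terms in atpc1-1 is not settled by these values, as its intensities overlap.

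**Figure D5:**
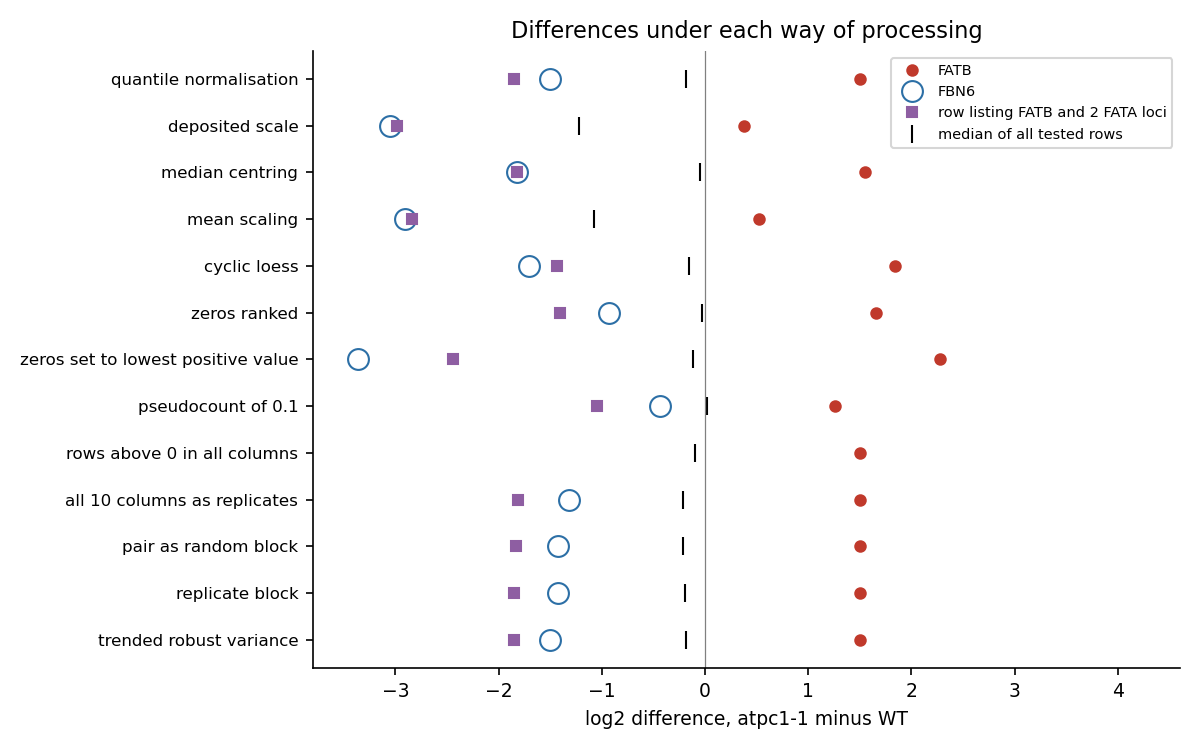
Log2 difference (atpc1-1 minus WT) of FATB, FBN6 and the row listing FATB with the FATA loci under each way of processing, with the median of all tested rows as a vertical mark. FATB runs from 0.38 as deposited to 2.28 with zeros replaced by the lowest positive value, and FBN6 from -3.36 with zeros so replaced to -0.44 with a pseudocount of 0.1.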

How the data were processed

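Expression was measured by array in 20 samples. The deposited intensity values are linear, and how the authors produced them is not given in the sources used. Intensities were taken as log2 with no pseudocount, 0 was treated as missing, columns were quantile normalised, and the 2 columns of each adjoining pair were averaged. Rows with at least 3 of 5 replicates in each genotype were tested (3298 rows, with 141 left out) with limma 3.58.1 in R 4.3.3 (lmFit and eBayes, two-sided, genotype as the only term, Benjamini-Hochberg over all tested rows, threshold 0.05), and adjusted p-values come from that fit. The script was tested on simulated data. Gene names came from the platform annotation, with symbols brought up to date from the RefSeq gene table of TAIR10.1 (690 of 692 rows matched). Named were FATB, FBN6, all list genes with a row of their own, and the 3 rows most correlated with each member (value in at least 9 of 10 replicates, at least 8 shared). Rows listing several genes were added later, by annotation. Members and lists were chosen with earlier results of these data known. The number of arrays limits precision.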

Additional observations from a re-analysis of the deposited data

Results flagged for a closer look

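The replicates of each genotype were examined for a value far from the others in the named rows. Of 78 groups, 6 held such a replicate, where about 3.90 would be expected by chance. None was FATB or FBN6. Divided by the range of its group, the distance from the far replicate to the nearest other was 0.894 for AT1G24360, 0.969 for a row of AT2G22230 with AT5G10160 and 0.826 for the row of AT2G35490 with AT4G04020, AT4G22240 and AT5G09820, each with atpc1-1 replicate 1 lowest. It was 0.919 for a row of AT2G42130 with PGL34 (AT3G58010), with atpc1-1 replicate 1 highest, and 0.735 for WT replicate 5 as the highest in a row of these same genes. AT5G19750, a row most like FBN6, gave 0.755 with atpc1-1 replicate 3 lowest, which was also the lowest for FBN6 among the atpc1-1 replicates with a value.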

How the results depend on the processing

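FATB stayed positive and FBN6 negative in all settings that gave a value. FATB moved from 1.501 to 0.38 without scaling, 0.53 with columns set to equal means (mean scaling) and 2.28 with zeros replaced by the lowest positive value, and FBN6 from -1.498 to -3.06, -2.91 and -3.36 there and to -0.44 with a pseudocount of 0.1. With a replicate left out FATB ran from 1.32 to 1.70 and FBN6 from -1.76 to -1.08. The ratio of the pair, 3.62, became 2.59 with zeros ranked, 5.64 with zeros replaced and 1.70 with the pseudocount, and ran from 3.06 to 3.86 with a replicate left out. FBN6 and the ratio had no value over rows above 0 in all columns, and the ratio none with the pair as a random block. Rows called numbered 808 (337 higher, 471 lower), against 2022 (126 and 1896) without scaling, 1816 (150 and 1666) with mean scaling and 1343 with all 10 columns as replicates. The split also moved, to 497 and 403 with median centring, 505 and 445 with zeros ranked, 408 and 243 with zeros replaced and 605 and 537 with the pseudocount. With a replicate left out they ran from 453 to 957, and were 476, 453, 461 and 478 without WT replicate 1, 2, 3 and 4. Of the 8 other lipid rows listing 1 gene, 0 were called, against 4 without scaling (61.3% of all rows called), 3 with all 10 columns (43.5%), 2 with mean scaling (55.1%) and with zeros ranked (28.3%), and 1 with zeros replaced (18.9%), with the pseudocount (33.2%), over rows above 0 in all columns (36.1%) and with trended robust variance (27.2%), against 24.5% for the 0 called. With a replicate left out 0 to 1 were called, AT3G58830 without atpc1-1 replicate 1 and AT2G35490 without WT replicate 5. Of the 18 tested rows listing several genes 3 were called, against 9 without scaling, 8 with mean scaling, 1 with cyclic loess, 1 when the pair was a random block, and 0 over rows above 0 in all columns. The cause of these changes was not tested. Same-numbered replicates of the genotypes correlated in their deviations at 0.02 to 0.22, over 0.1 in 3 of 5. The numbers were not taken as pairs in the fit used above, a choice that these correlations do not settle. With the replicate block 732 rows were called, FATB stood at 1.501, FBN6 at -1.42, their ratio at 3.39, and 0 lipid rows were called. FBN6 in atpc1-1 lies near or at 0, which limits the size of its difference.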
